A study of Homo sapiens with 36 samples.

Results

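Genes whose response to doxycycline (DOX) depended on the BRAF and MEK inhibitors were measured in A375TR-NR2F1, a human BRAF-V600E melanoma line that carries the Tet repressor and an NR2F1 cDNA under DOX control. For each gene, the DOX effect under DMSO (DMSO + DOX minus DMSO) was subtracted from the DOX effect under the inhibitors (BRAFi + MEKi + DOX minus BRAFi + MEKi), on the log2(value + 1) scale. A positive interaction therefore means that DOX raised the gene more, or lowered it less, under the inhibitors. Of 24370 genes tested in the 12 A375 libraries, 112 were called at an adjusted p under 0.05 by limma with Benjamini-Hochberg adjustment, which is 0.460% of the genes. The interaction was higher than 0 in 107 of them (0.439%) and lower in 5 (0.0205%), and 1766 genes had an unadjusted p under 0.05.

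Each of the 4 A375 groups had 3 libraries, and the series also holds the same 4 groups of 1205LuTR-NR2F1 and WM793TR-NR2F1, 36 libraries in all. All groups carried the lentiviral NR2F1-WT construct and the Tet repressor, and came from hygromycin selection. BRAFi + MEKi was PLX4720 at 1 μmol/L with PD0325901 at 35 nmol/L, DOX was given at 100 ng/mL, and treatment lasted 72 hours. The methods place DOX in the medium for 24 hours before treatment without setting any group apart, so whether the groups called here without DOX had it in that time cannot be told. Since every library with DOX also carried the cDNA, DOX itself and NR2F1 cannot be told apart in any DOX effect given here.

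Melanoma cells with BRAF-V600E signal constantly through MEK and ERK, and this signal drives cyclin D and entry into the cell cycle. When the pathway is blocked, the RB protein holds E2F factors in check, so that replication genes (needed in S phase) and, through the DREAM complex, mitotic genes are turned down. NR2F1, also called COUP-TFI, is an orphan nuclear receptor of neural crest development that binds DNA repeats of the letters AGGTCA.

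The deposited values per A375 library added up to between 27027824 and 31192155, and an estimate from the commonest low value put the libraries at 26200000 to 60500000 reads. Libraries of 1 group correlated across genes with r between 0.965 and 0.989 on the log2 scale. The first component of the within-group variation held 29.9% of it. On this component, in every group only the library numbered 3 was above 0. It stood apart least under BRAFi + MEKi + DOX, where the libraries numbered 1 to 3 scored -0.18, -0.02 and 0.20. Melanoma identity was carried by SOX10, a neural crest lineage factor at 10433 to 24854 in the 12 libraries, by MITF (685 to 2785) and by PRAME (6078 to 8608). SOX10 was at 10433 to 12670 under DMSO + DOX, below the 14722.5 to 16487 under DMSO. It was at 16086 to 19845 under BRAFi + MEKi + DOX, below the 20819 to 24854 under BRAFi + MEKi. Such an order was seen in 6.12% of all genes under DMSO and 7.13% under the inhibitors, and neither DOX effect on SOX10 was called. The pigment genes varied, with MLANA and TYR at or near 0 (highest values 0.974 and 4.91), PMEL between 25.3 and 152.7 and DCT between 0 and 13703. Of the markers of other cell types, KRT1, LORICRIN and CLDN5 were at 0 in every library, PTPRC of leukocytes did not exceed 26.98 and COL1A2 of fibroblasts did not exceed 13.1, while CD68 (2118 to 6429), PDGFRB (710.4 to 1211) and KRT10 (374 to 804) were well above 0. Summed over each list, the lowest and highest DMSO, DMSO + DOX, BRAFi + MEKi and BRAFi + MEKi + DOX libraries were in that order 752 and 975, 452 and 595, 631 and 818, and 645 and 1002 for 8 keratinocyte markers. The 8 immune markers gave 3764 and 4531, 4446 and 4911, 3264 and 6571, and 2175 and 3715. The 5 endothelial markers gave 55.5 and 91.8, 33.1 and 84.5, 64.2 and 93.4, and 96.3 and 199.2, so every BRAFi + MEKi + DOX library lay above all others at these low levels. The 9 fibroblast markers ranged over 2140 to 3228 in the same libraries. The 13 melanoma markers gave 69436 and 81235, 52038 and 66128, 69491 and 90292, and 46863 and 71006. In the interaction none of the 5 keratinocyte, 9 fibroblast, 5 immune and 4 endothelial markers tested was called, and 3, 0, 3 and 1 of them had an unadjusted p under 0.05. All 5 keratinocyte markers were above 0 (median 0.64), and the part of the keratinocyte, immune and endothelial markers in the results was not tested. In bulk RNA, fewer cells of a type, such as cells in mitosis, and less RNA per cell cannot be told apart.

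NR2F1 itself was switched on with and without the inhibitors. Its values were 497, 405 and 563 in the DMSO libraries, 19001, 31631.5 and 17271 under DMSO + DOX, 1327, 1223 and 1431 under BRAFi + MEKi and 23714, 35683 and 14995 under BRAFi + MEKi + DOX. Every DOX library lay far above every library without DOX, and the 2 DOX groups overlapped. The inhibitors alone raised NR2F1 by 1.45 (log2), so the DOX effect was smaller under the inhibitors (4.14) than under DMSO (5.49), and the interaction of -1.35 (SE 0.38, adjusted p = 0.243) did not pass the threshold. Reads of the cDNA and of the gene's own RNA (chr5:93583222-93594611, GRCh38) are not separated in the files.

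**Figure D1:**
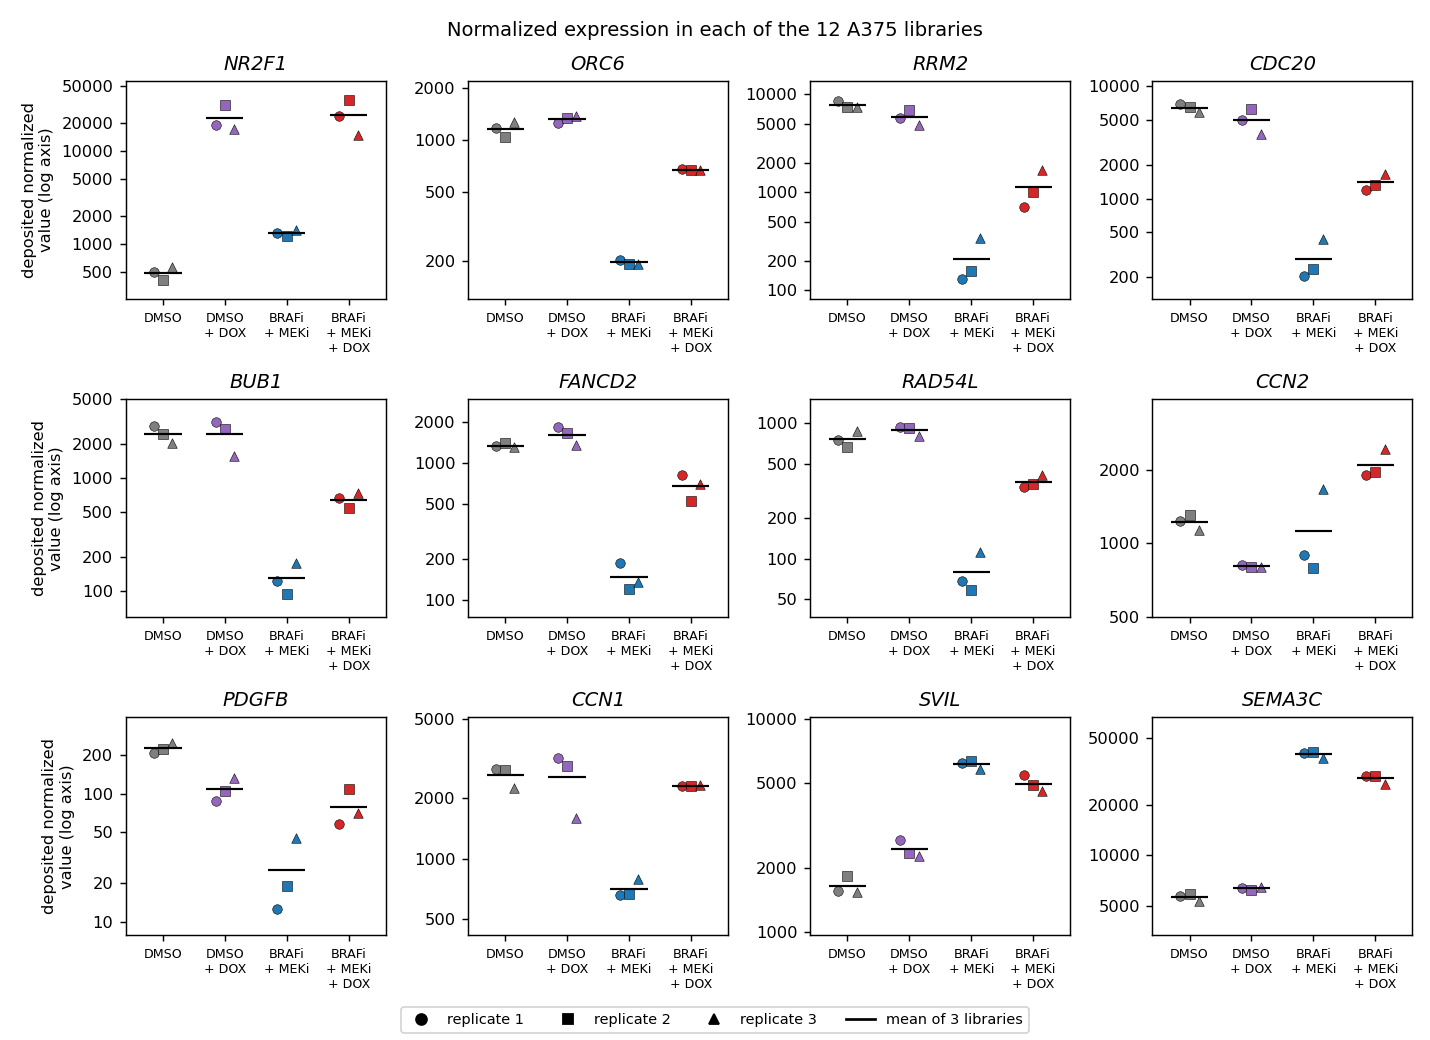
Deposited normalized value (log axis) of 12 genes in each of the 12 A375 libraries, with symbols for replicates 1 to 3 and a bar at the mean of each group. In the 6 cell-cycle panels, DMSO and DMSO + DOX are high and BRAFi + MEKi + DOX lies between them and BRAFi + MEKi; PDGFB is lower with DOX under DMSO and higher with DOX under the inhibitors, and SVIL and SEMA3C are highest under BRAFi + MEKi.

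The 107 genes with a positive interaction shared a profile over the 4 groups. The median DOX effect under DMSO was 0.03 (log2), and 94 of the 107 genes had a DMSO + DOX mean between 80 and 125% of the DMSO mean. The inhibitors without DOX lowered 105 of the 107 at an adjusted p under 0.05, against 19.0% of all genes tested, and the median gene kept 11.2% of its DMSO mean. The same libraries enter the interaction, so this count is in part fixed by the choice of genes and is not separate evidence. With DOX under the inhibitors the median stood at 40.8% of the DMSO mean, and in 105 genes the group mean stayed under the DMSO mean. The loss under the inhibitors was thus smaller with DOX but still there, and the exceptions were CCN2 (171.8%) and TRAIP, a ubiquitin ligase of stalled replication forks (126.5%).

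**Figure D2:**
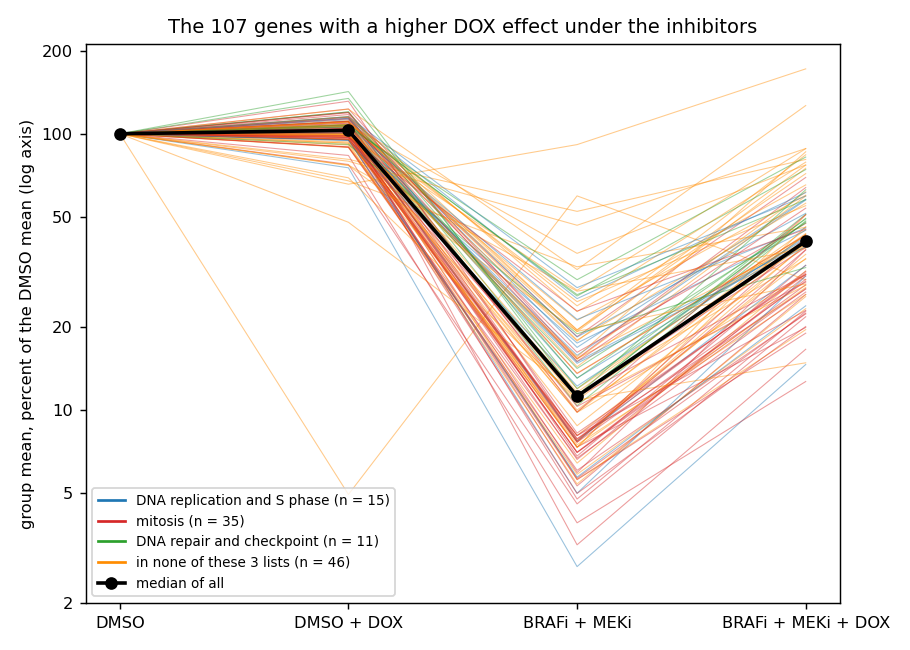
Group means of the 107 genes with a positive interaction, as a percent of the DMSO mean (log axis), with 1 line per gene coloured by list and the median in black. The median runs from 100 to 102.9% with DOX, to 11.2% with BRAFi + MEKi and to 40.8% with both.

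The DOX effect under BRAFi + MEKi passed its own test in 102 of the 107 genes, upward in each, where 1.37% of all genes did. Under DMSO it passed for 1 of the 107, where 12 of all genes were called (0.0492%), 4 of them higher (0.0164%) and 8 lower (0.0328%). This count rose to 79 in the fit with a replicate block and to 126 without the libraries numbered 3, so few calls under DMSO do not show that DOX had little effect there. In 106 genes, every BRAFi + MEKi + DOX library lay above every BRAFi + MEKi library, which 8.28% of all genes showed. In 94 genes the libraries with and without DOX overlapped under DMSO, as they did in 88.3% of all genes. The DOX libraries lay above the others under DMSO in 4 of the 107 (5.55% of all genes) and below them in 9 (6.12%). These comparisons use the libraries that gave the interaction, so they describe its shape and are not separate evidence for it.

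**Figure D3:**
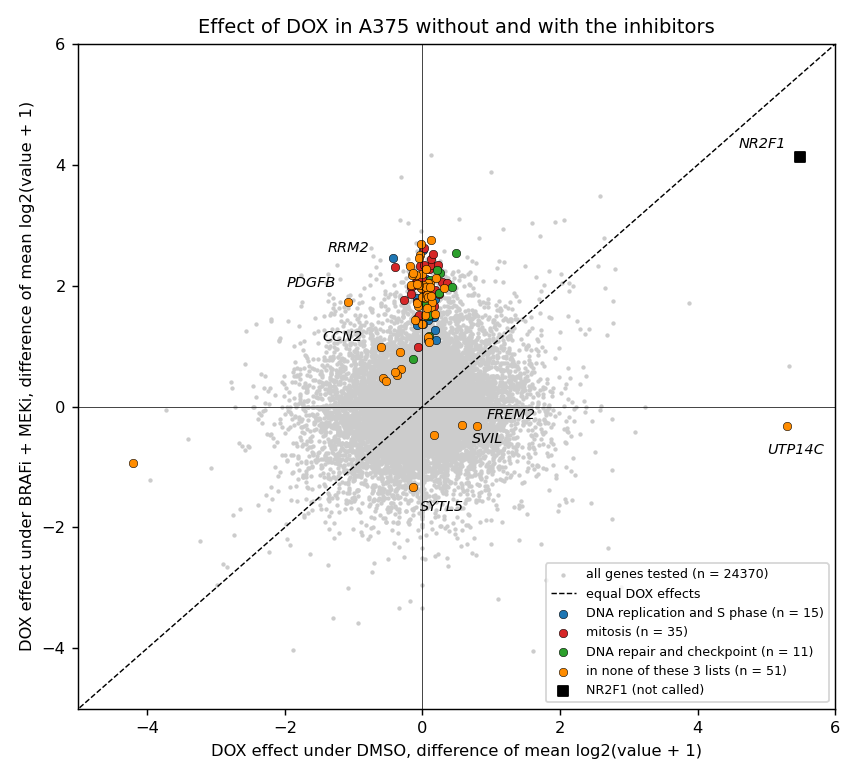
DOX effect under BRAFi + MEKi (vertical axis) against the DOX effect under DMSO (horizontal axis), both as differences of mean log2(value + 1), for all 24370 genes in grey and the 112 called genes in colour. Most called genes form a column near 0 on the horizontal axis and between 1 and 3 on the vertical axis, while UTP14C lies far to the right and NR2F1 sits high on both.

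Most of the called genes belonged to the cell cycle. Lists of genes for DNA replication and S phase, for mitosis, and for DNA repair and checkpoints held 61 of the 107, with no gene of these lists among the 5 lower ones. In the mitosis list 35 of 73 members tested were called, in the replication list 15 of 52 and in the repair list 11 of 34. Of all genes tested, 0.439% were called higher. The lists were written with earlier results of these data known. The median interaction was 1.78, 0.88 and 1.02 in the same order, beside 0.01 over all genes tested. A further 41 of the 107 genes stood in none of the 21 lists. Among these 41 are many genes with known roles in division, such as ZWINT, CENPN, CENPW, PLK4 and CDCA5, so the lists understate that share.

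Promoters are shown for 4 genes that carry the pattern: ORC6, with the smallest p of the replication list, RRM2 and CDC20, with the largest interactions of the replication and mitosis lists, and FANCD2, with the smallest p in the repair list among genes with a window. Each runs from 250 bases before the RefSeq start to 30 bases after it (GRCh38.p14). Capitals mark any match, on either strand, to CCAAT (bound by NF-Y), to TTTGAA (the cell cycle homology region, CHR), to the E2F letters TTTCCCGC, TTTGGCGC, TTTCGCGC or TTTGCCGC, or to the NR2F half-site AGGTCA.
ORC6 (chr16:46689409-46689688, plus strand): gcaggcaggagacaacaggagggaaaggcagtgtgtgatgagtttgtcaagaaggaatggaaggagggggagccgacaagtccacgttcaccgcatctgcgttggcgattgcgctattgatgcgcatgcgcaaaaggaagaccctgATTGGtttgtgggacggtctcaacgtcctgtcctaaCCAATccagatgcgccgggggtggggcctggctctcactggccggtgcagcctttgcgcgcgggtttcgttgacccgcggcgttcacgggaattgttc
RRM2 (chr2:10122489-10122768, plus strand, the first of 2 windows): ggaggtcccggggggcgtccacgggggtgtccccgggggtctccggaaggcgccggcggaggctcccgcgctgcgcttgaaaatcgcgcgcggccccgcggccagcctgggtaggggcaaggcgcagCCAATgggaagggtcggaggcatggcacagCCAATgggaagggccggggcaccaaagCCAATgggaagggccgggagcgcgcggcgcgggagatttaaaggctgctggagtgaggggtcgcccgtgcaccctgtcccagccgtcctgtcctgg
CDC20 (chr1:43358731-43359010, plus strand): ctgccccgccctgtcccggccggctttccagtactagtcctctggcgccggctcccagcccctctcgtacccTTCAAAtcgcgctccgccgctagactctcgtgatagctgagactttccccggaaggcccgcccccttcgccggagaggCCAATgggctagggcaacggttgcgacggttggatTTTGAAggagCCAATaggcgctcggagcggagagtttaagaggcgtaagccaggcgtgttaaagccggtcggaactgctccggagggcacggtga
FANCD2 (chr3:10026187-10026466, plus strand): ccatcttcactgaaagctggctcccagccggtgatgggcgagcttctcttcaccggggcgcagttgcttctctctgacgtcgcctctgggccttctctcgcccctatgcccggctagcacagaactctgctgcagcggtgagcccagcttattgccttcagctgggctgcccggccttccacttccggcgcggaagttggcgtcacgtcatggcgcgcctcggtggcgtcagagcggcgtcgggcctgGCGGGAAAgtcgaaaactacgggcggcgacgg

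ORC6 held CCAAT 68 bases before the start and its complement 104 bases before. RRM2 held 3 copies of CCAAT, at 123, 93 and 66 bases before the start. CDC20 held CCAAT at 100 and 55 bases, with TTTGAA 65 bases before the start and its complement at 178. FANCD2 held the complement of TTTCCCGC starting 2 bases before the start and no CCAAT or TTTGAA. A window was listed for 83 of the 107 genes, taking the first window of each symbol. CCAAT stood in 57 of the 83 (68.7%), against 36.3% of the 14555 tested genes with a window. TTTGAA stood in 32 (38.6% against 10.5%), the E2F letters in 16 (19.3% against 4.59%), and CCAAT together with TTTGAA in 26 (31.3% against 4.42%). AGGTCA stood in 8 (9.64% against 10.3%). A match describes these letters in this window and is not a measured binding site.

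ORC6 and CDC6 had the smallest p values of the replication list. ORC6, a subunit of the origin recognition complex at chr16:46689643-46698394, measured 1166, 1039 and 1276 under DMSO, 1258, 1334 and 1368 under DMSO + DOX, 203, 192 and 191 under BRAFi + MEKi and 675, 672 and 670.4 under BRAFi + MEKi + DOX. The last 2 groups were tight and far apart, while the 2 groups without inhibitors overlapped. DOX raised ORC6 by 1.78 under the inhibitors, and its effect under DMSO was 0.19 (95% interval -0.05 to 0.43), for an interaction of 1.59 (SE 0.16, adjusted p = 0.00159). CDC6, which loads the MCM helicase at origins, measured 2189, 1690.2 and 2459 under DMSO, 1957, 1914 and 2562 under DMSO + DOX, 313, 346 and 340.0 under BRAFi + MEKi and 1131, 1225.5 and 1291 with DOX added (interaction 1.84, SE 0.21, adjusted p = 0.00291). Both genes had the same order of groups, with the combined treatment between the inhibitors alone and the groups without inhibitors.

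Of the 6 subunits of the MCM helicase, MCM2, MCM4 and MCM5 were called, and MCM3 (0.76, adjusted p = 0.0552), MCM6 (1.12, adjusted p = 0.124) and MCM7 (0.71, adjusted p = 0.355) were not. MCM4 measured 6819, 6045 and 7763 under DMSO, 7111, 6141 and 6283 under DMSO + DOX, 1112, 1095 and 1394 under BRAFi + MEKi and 3265, 2494 and 3467 under BRAFi + MEKi + DOX, with an interaction of 1.43 (SE 0.20, adjusted p = 0.00745). MCM5 measured 2409.6, 2542 and 2927, then 2729, 3104 and 3029 with DOX, 537, 435 and 475 under the inhibitors and 1204, 1249 and 1604.5 under both, with an interaction of 1.31 (SE 0.19, adjusted p = 0.00768). In both, the libraries overlapped between DMSO and DMSO + DOX and did not overlap between the inhibitor groups. MCM2, the subunit phosphorylated when origins fire, had an interaction of 1.36, and ORC1, the largest subunit of the origin recognition complex, one of 1.53. MCM10, which joins the helicase at firing, measured 38.7, 38.5 and 74.8 under BRAFi + MEKi and 196, 299 and 435.5 with DOX, against 960.4, 945 and 1142 under DMSO and 987, 1007 and 1060.5 under DMSO + DOX (interaction 2.58, SE 0.40, adjusted p = 0.0106). Its inhibitor groups did not overlap. CDC45 and CDT1, which also act at origins, did not pass (2.24 and 1.59, adjusted p = 0.0778 and 0.243).

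Genes of nucleotide supply were among the called ones. RRM2, the regulated subunit of ribonucleotide reductase, measured 8574, 7390.0 and 7404 under DMSO, 5687, 7019 and 4885 under DMSO + DOX, 129, 158.5 and 345 under BRAFi + MEKi and 703, 1007 and 1701 under BRAFi + MEKi + DOX. Its libraries separated in both arms, in opposite directions, with DOX lower under DMSO (-0.42, 95% interval -1.13 to 0.29) and higher under the inhibitors (2.46). The interaction of 2.89 (SE 0.47, adjusted p = 0.0153) was the largest in the replication list, although RRM2 stayed at 14.6% of its DMSO mean under BRAFi + MEKi + DOX. TK1, the S-phase thymidine kinase, had an interaction of 2.26 (adjusted p = 0.0453), and TYMS, thymidylate synthase, one of 1.36 (adjusted p = 0.044). E2F1, the activator that RB restrains, measured 953, 964 and 1287 under DMSO, 913, 1105 and 1317 under DMSO + DOX, 70.9, 64.7 and 112 under BRAFi + MEKi and 300.4, 303 and 466 with DOX added (interaction 2.05, SE 0.33, adjusted p = 0.0153). The smallest call of the list was TIMELESS, a replication fork protein (0.89, adjusted p = 0.0422). Histone deposition was represented by ASF1B, a chaperone of histones H3 and H4 outside the list, whose values were 2626, 1963 and 2902 under DMSO, 2089, 2485 and 2568.5 under DMSO + DOX, 174, 114 and 285 under BRAFi + MEKi and 820.4, 1068 and 1093 under both (interaction 2.52, SE 0.37, adjusted p = 0.00789). DTL, a substrate receptor of an S-phase ubiquitin ligase, had 2.27 (adjusted p = 0.00415).

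Of the 52 replication genes, 51 had an interaction above 0, 39 had an unadjusted p under 0.05, and DOX under the inhibitors raised 32 at its own threshold. The same over all genes tested was 50.7%, 1766 of 24370 and 1.37%. PCNA, the sliding clamp, was among those not called. Its values were 5003.5, 4833.5 and 5691 under DMSO, 4901, 5266 and 4982 under DMSO + DOX, 2575, 2551 and 2511.5 under BRAFi + MEKi, and 3164, 3223 and 3670.4 with DOX added. The groups kept the order seen in ORC6 over a narrower range, with an interaction of 0.43 (SE 0.13, adjusted p = 0.347).

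Mitotic genes made up the largest block. CDC20, which activates the anaphase-promoting complex, measured 6893, 6475.5 and 5869 under DMSO, 4958, 6186 and 3744 under DMSO + DOX, 204, 238 and 436.5 under BRAFi + MEKi and 1193, 1330.4 and 1659.8 under BRAFi + MEKi + DOX. The inhibitor groups did not overlap, and even the highest combined library stayed under the lowest library without inhibitors. DOX raised CDC20 by 2.31 under the inhibitors against -0.40 under DMSO (95% interval -0.92 to 0.13), an interaction of 2.71 (SE 0.34, adjusted p = 0.00415). BUB1, a spindle checkpoint kinase, measured 2871, 2452.5 and 2046, then 3138, 2708 and 1566 with DOX, 121, 92.5 and 178 under the inhibitors and 659, 539.6 and 731 under both (interaction 2.37, SE 0.37, adjusted p = 0.0121). BUB1B, the BUBR1 protein of the mitotic checkpoint complex, measured 3372, 3464 and 3315, then 3595, 3764 and 2638 with DOX, 192, 201 and 320.3 under the inhibitors and 754.5, 869.5 and 1258 under both (interaction 2.06, SE 0.30, adjusted p = 0.0088). All 3 genes kept between 4.57 and 7.02% of their DMSO means under the inhibitors alone and had overlapping libraries under DMSO.

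CIT, citron kinase, which acts at the midbody in cytokinesis, had the smallest p of the list. Its values were 3552, 3789 and 3747 under DMSO, 4446, 4369.8 and 3335 under DMSO + DOX, 723, 760.3 and 560.5 under BRAFi + MEKi and 2944, 2131 and 2628 under BRAFi + MEKi + DOX (interaction 1.79, SE 0.21, adjusted p = 0.00332). With DOX under the inhibitors, CIT came to 69.5% of its DMSO mean, the highest of the 35 called mitosis genes. CDC25C, the phosphatase that switches on CDK1 for mitosis, measured 606, 679 and 557, then 784, 740.5 and 487 with DOX, 33.5, 39.4 and 52.5 under the inhibitors and 179, 181 and 255 under both (interaction 2.17, SE 0.32, adjusted p = 0.00927). BIRC5, survivin of the chromosomal passenger complex, measured 2829, 2667 and 2786, then 2757, 3536.5 and 2251 with DOX, 83.2, 102 and 208 under the inhibitors and 570.3, 541 and 776 under both (interaction 2.33, SE 0.38, adjusted p = 0.0167). These 2 genes stayed far from their DMSO levels under the combined treatment.

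The called kinesins had interactions between 1.40 (KIF18A) and 2.59 (KIF15). KIF15, which helps keep the spindle bipolar, measured 1501, 1323 and 1155 under DMSO, 1539, 1503 and 1046 under DMSO + DOX, 73.7, 58.3 and 104 under BRAFi + MEKi and 356, 396 and 758 under BRAFi + MEKi + DOX (interaction 2.59, SE 0.39, adjusted p = 0.00927). KIF18B, which shortens astral microtubules, measured 1634, 1649 and 1493, then 1603, 1656 and 1157 with DOX, 64.8, 76.4 and 116 under the inhibitors and 292, 332.5 and 605 under both (interaction 2.34, SE 0.37, adjusted p = 0.0136). In both the library numbered 3 was the highest of its group under the inhibitors, with and without DOX. KIF14, KIF23, KIF20B and KIFC1 were also called, with interactions of 1.75, 1.74, 1.52 and 2.11. The regulators of the mitotic program were called as well, FOXM1 at 1.90 (adjusted p = 0.0347) and MYBL2, the MYB protein that replaces DREAM at these promoters, at 2.10 (adjusted p = 0.0301). DEPDC1, another member of the mitosis list, had an interaction of 2.37 (SE 0.43, adjusted p = 0.0267). The mitotic kinases PLK1 (2.04), AURKA (1.52), TTK (2.12) and NEK2 (2.14) and the cyclins CCNB1 (1.57) and CCNB2 (2.13) passed the same threshold.

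Called genes of division outside the lists had values of the same kind. SHCBP1, a protein of the midbody, measured 1808.5, 1932 and 1583 under DMSO, 1965, 1883 and 1440.5 under DMSO + DOX, 115, 93.5 and 182 under BRAFi + MEKi and 876, 752.5 and 826 under BRAFi + MEKi + DOX, and its interaction of 2.72 (SE 0.29, adjusted p = 0.00212) was the largest of these. CEP55, needed for the final separation of daughter cells, measured 2487, 2581.5 and 2934, then 2905, 2406 and 1826 with DOX, 153, 124 and 236 under the inhibitors and 744, 711 and 1092 under both (interaction 2.52, SE 0.33, adjusted p = 0.00518). ERCC6L, the PICH translocase of ultrafine anaphase bridges, measured 499, 478.5 and 567, then 688, 583 and 439 with DOX, 29.4, 31.5 and 52.1 under the inhibitors and 226, 194 and 366 under both (interaction 2.63, SE 0.38, adjusted p = 0.00789). In these 3 genes DOX libraries overlapped the others under DMSO and lay above them under the inhibitors. The kinetochore and centromere genes ZWINT (1.97), CENPN (1.76), CENPW (1.93), CENPH (1.82) and OIP5 (1.88) were called, as was PLK4, the kinase of centriole duplication (2.21).

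All 73 mitosis genes tested had an interaction above 0 and 71 had an unadjusted p under 0.05, so that the 35 calls end at a threshold within the list and not at a gap. Over all genes tested, 50.7% were above 0 and 1766 of 24370 had such a p. The genes closest to the threshold on the called side were KIF23 (adjusted p = 0.0480) and RMI2 (0.0472), and on the other side DSN1 and NCAPG (both 0.0501). MKI67, the Ki-67 proliferation antigen, was not called. Its values were 9183, 8383 and 8627.5 under DMSO, 11347, 9444 and 5995 under DMSO + DOX, 393, 318 and 1021 under BRAFi + MEKi, and 1673.5, 1553 and 3939 under BRAFi + MEKi + DOX. Its DOX effect under the inhibitors was 2.11 and its interaction 2.12 (SE 0.57, adjusted p = 0.203), with the library numbered 3 far above the other two in both inhibitor groups. TOP2A, topoisomerase of chromosome condensation, had an interaction of 1.83 (SE 0.49, adjusted p = 0.194), and CDK1, the mitotic kinase, one of 1.83 (SE 0.39, adjusted p = 0.0652). Over the 107 genes, the library numbered 3 was the highest of its group in 85 under BRAFi + MEKi and in 87 under BRAFi + MEKi + DOX, and the lowest in 75 under DMSO + DOX.

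The number of calls depended on single libraries. Leaving out each library in turn gave between 40 calls (without DMSO replicate 1) and 209 (without BRAFi + MEKi replicate 3), and 36 of the 112 genes were called in all 12 such fits, ORC6, CDC20, FANCD2 and CIT among them. RRM2 was called in 8 of the 12 and BUB1 in 10. Other cell-cycle calls named above held in 1 (CCNB1, TK1), 2 (TIMELESS), 3 (FOXM1, PLK1, AURKA, NEK2, DEPDC1, TYMS), 4 (MYBL2), 6 (TTK) or 8 (CCNB2) of the 12. The mitosis list moved between 6 calls (without DMSO replicate 1) and 60 (without BRAFi + MEKi replicate 3), the replication list between 7 and 23 and the repair list between 3 and 12. Without all 4 libraries numbered 3, 235 genes were called, 89 of them among the 112. Without the 4 libraries numbered 1 or the 4 numbered 2, limma called none, and 1057 and 1055 genes had an unadjusted p under 0.05, all 112 among them both times. All 112 genes kept their sign under each of the 22 alternatives. These alternatives refit the libraries that gave the 112 calls, so the kept signs and small p values are in part fixed by that choice. What sets the libraries numbered 3 apart was not tested.

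Repair genes that act at stalled forks followed. FANCD2, the Fanconi anemia protein that marks crosslinked DNA, measured 1319, 1387 and 1294.5 under DMSO, 1824, 1638 and 1339 under DMSO + DOX, 185, 119 and 135 under BRAFi + MEKi and 821, 526 and 697.5 under BRAFi + MEKi + DOX (interaction 1.96, SE 0.27, adjusted p = 0.0066). RAD54L, a DNA translocase of homologous recombination, measured 749.8, 666 and 876, then 937, 912 and 794 with DOX, 67.7, 58.9 and 111 under the inhibitors and 338, 355 and 415 under both (interaction 2.04, SE 0.30, adjusted p = 0.00789). RAD54L and FANCD2 kept 10.4 and 10.97% of their DMSO means under the inhibitors alone, and their inhibitor groups did not overlap. EME1, part of a nuclease that resolves DNA joints, measured 166, 269 and 262 under BRAFi + MEKi and 648, 687.5 and 601 with DOX, against 811, 844 and 697.5 under DMSO and 883, 843 and 766.5 under DMSO + DOX (interaction 1.42, SE 0.24, adjusted p = 0.0208). POLQ, the polymerase of end joining, had an interaction of 2.06 and EXO1, an exonuclease, one of 1.70. Outside the list, DDIAS, a DNA damage-induced apoptosis suppressor, measured 522.5, 528 and 567 under DMSO, 585, 543 and 458 under DMSO + DOX, 122, 59.9 and 69.8 under BRAFi + MEKi and 383, 487 and 522 under both (interaction 2.54, SE 0.32, adjusted p = 0.00415). DDIAS came back further than FANCD2 and RAD54L (51.09 and 48.34%), to 86.05% of its DMSO mean. APOBEC3B, a cytidine deaminase that edits DNA, had an interaction of 2.19 (adjusted p = 0.00291).

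**Figure D4:**
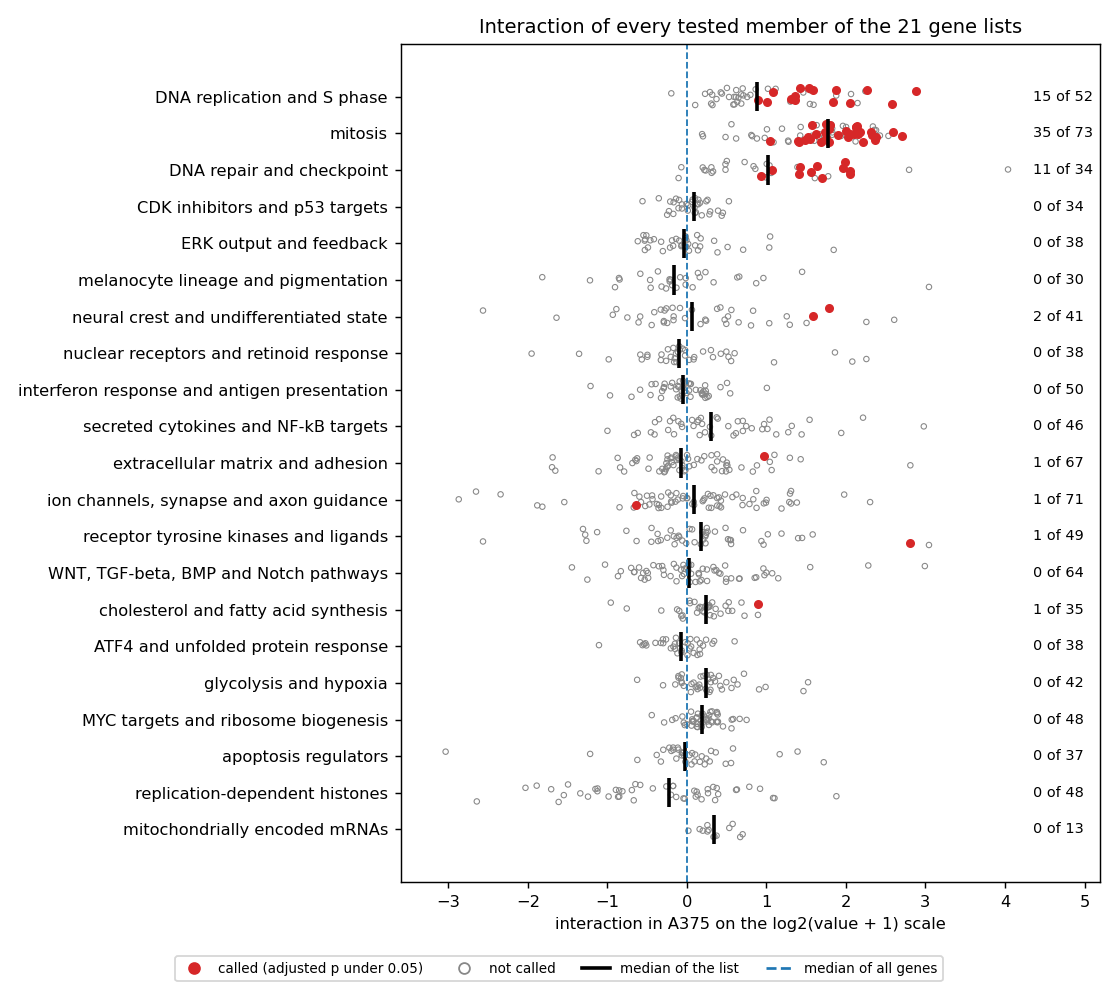
Interaction of every tested member of the 21 gene lists on the log2(value + 1) scale, with called genes in red, the list's median as a black bar, the median of all genes as a dashed line and the count called at the right. The replication, mitosis and repair lists lie to the right of 0 with medians of 0.88, 1.78 and 1.02, and the other 18 lists are centred between -0.23 and 0.34.

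A smaller set of called genes lay outside the cell cycle, and several of them had other profiles. CCN1, described below, kept the order of groups seen in the cell-cycle genes. It stood at 98.1% of its DMSO mean under DMSO + DOX, 27.1% under BRAFi + MEKi and 88.3% under both. PDGFB, a ligand of the PDGF receptors, was the one called member of the 49 genes for receptor tyrosine kinases and ligands. It measured 208, 221.5 and 245 under DMSO, 87.0, 104 and 131.5 under DMSO + DOX, 12.6, 19.1 and 45.2 under BRAFi + MEKi and 57.5, 109 and 70.6 under BRAFi + MEKi + DOX. Its libraries separated in both arms and in opposite directions, lower with DOX under DMSO (-1.07, 95% interval -1.92 to -0.23) and higher under the inhibitors (1.73), for an interaction of 2.81 (SE 0.55, adjusted p = 0.044). The call held in 1 of the 12 fits that each left out a library. CCN1 and CCN2, secreted matricellular proteins induced by YAP and TEAD, were the called members of the 41 neural crest and undifferentiated-state genes. CCN1 measured 2816, 2766 and 2250.4, then 3176, 2916 and 1589.9 with DOX, 661.5, 668 and 794 under the inhibitors and 2296, 2302.5 and 2319 under both (interaction 1.79, SE 0.29, adjusted p = 0.0143), and its combined libraries lay closer together than those of any other group. CCN2 measured 1238, 1307 and 1131, then 815, 799 and 799.8 with DOX, 896.5, 796 and 1666 under the inhibitors and 1909.5, 1963 and 2441 under both (interaction 1.58, SE 0.30, adjusted p = 0.0322). CCN2 was lower with DOX under DMSO and higher with DOX under the inhibitors, without overlap, and its call held in 1 of the 12 fits.

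TIMP3, an inhibitor of metalloproteinases, was called among 67 matrix and adhesion genes. It measured 79291, 79456.5 and 72079.5 under DMSO, 58946.5, 48720.5 and 52181 under DMSO + DOX, 8874, 8336 and 7862 under BRAFi + MEKi and 10796, 9495 and 13900.4 under BRAFi + MEKi + DOX (interaction 0.96, SE 0.18, adjusted p = 0.0323). DHCR7, the last enzyme of cholesterol synthesis, was called among 35 lipid synthesis genes with 1734, 1455 and 1689.5 under DMSO, 1225, 1219 and 1312 under DMSO + DOX, 429, 394 and 489 under BRAFi + MEKi and 613, 580.0 and 682 under both (interaction 0.89, SE 0.17, adjusted p = 0.0385). In TIMP3 and DHCR7 the interaction combined lower libraries with DOX under DMSO and higher ones under the inhibitors, without overlap in either arm, and none of their DOX effects passed its own test. The TIMP3 call held in 3 and the DHCR7 call in 2 of the 12 fits. RAB20, a small GTPase of membrane traffic, had the same shape, with 986, 995 and 1097 under DMSO, 723, 753 and 603 under DMSO + DOX, 315, 329 and 371 under BRAFi + MEKi and 451, 477.5 and 483 under both (interaction 1.05, SE 0.18, adjusted p = 0.02). IL7R, the interleukin-7 receptor chain, had an interaction of 1.23 (adjusted p = 0.043), LIMCH1, an activator of non-muscle myosin, one of 0.94 (adjusted p = 0.02), and ADD2, beta-adducin of the membrane skeleton, one of 0.97 (adjusted p = 0.047).

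Only 5 of the called genes had a negative interaction, and 4 of them had a mean of at least 30. SEMA3C, a secreted semaphorin of neural crest guidance and the one called gene of the 71 ion channel, synapse and guidance genes, measured 5742, 5899.8 and 5333 under DMSO, 6369, 6189.8 and 6483 under DMSO + DOX, 40380.5, 41305 and 37576.5 under BRAFi + MEKi and 29663, 29645 and 26588 under BRAFi + MEKi + DOX. The inhibitors raised it to 702.6% of its DMSO mean, and DOX lowered it under the inhibitors (-0.47). Its DOX effect under DMSO was 0.17 (95% interval -0.02 to 0.35), which gave an interaction of -0.64 (SE 0.12, adjusted p = 0.0323). SVIL, supervillin, which ties actin to the membrane, measured 1561, 1827 and 1547, then 2724, 2343 and 2272 with DOX, 6240.3, 6377 and 5830.0 under the inhibitors and 5452, 4890.5 and 4598 under both (interaction -0.88, SE 0.15, adjusted p = 0.0208). FREM2, a basement membrane protein, measured 1070.0, 902 and 930.1, then 2018, 1401 and 1644 with DOX, 8184.5, 8946 and 9364.5 under the inhibitors and 7302, 5878 and 8063 under both (interaction -1.12, SE 0.20, adjusted p = 0.0278). These 3 genes were raised by the inhibitors, and their DOX libraries lay above the others under DMSO and below them under the inhibitors, an order that 7.13% of all genes showed in the inhibitor groups.

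SYTL5, a Rab27 effector of vesicle transport, ran the other way with the inhibitors. Its values were 3590.0, 3715 and 3677.5 under DMSO, 4112, 3444 and 2631 under DMSO + DOX, 245.5, 230.1 and 181 under BRAFi + MEKi and 85.5, 95.4 and 78.3 under both, so DOX lowered it further under the inhibitors (-1.32), with an interaction of -1.19 (SE 0.23, adjusted p = 0.0432). UTP14C was listed at 0 in all DMSO libraries and at 24.1, 64.7 and 36.4 under DMSO + DOX, and did not exceed 0.982 in the inhibitor groups. It is an intronless copy of UTP14A, whose values were 2313 to 3278 in the 12 libraries, so reads can be split between the 2 genes and this call is uncertain. Of the 12 fits that each left out a library, the SVIL call held in 6, FREM2 in 4, SYTL5 in 3 and SEMA3C in 1.

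The remaining lists held no called gene. The 38 genes of ERK output and feedback had a median interaction of -0.03 although they fell by a median of 2.20 (log2) with the inhibitors, and their smallest p belonged to FOSL1, an AP-1 subunit with an interaction of 1.04 (adjusted p = 0.16). Among 34 CDK inhibitors and p53 targets none had an unadjusted p under 0.05 (median 0.08), and the lowest was for BTG2, an antiproliferative factor (0.53, adjusted p = 0.726). The 48 genes of MYC targets and ribosome biogenesis had a median of 0.19, led by POLR1B, a subunit of RNA polymerase I, at 0.56 (adjusted p = 0.0552). The 46 cytokine and NF-kB genes had a median of 0.30, and CXCL1, a neutrophil chemokine, reached 2.21 (adjusted p = 0.107). In the 42 genes of glycolysis and hypoxia the median was 0.24, with ADM, adrenomedullin, at 0.91 (adjusted p = 0.204). KIT, the receptor of stem cell factor, had the largest value of the 30 melanocyte genes (3.04, adjusted p = 0.358) at levels of no more than 24.5.

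The 48 replication-dependent histones had a median interaction of -0.23, with 18 above 0, 12 at an unadjusted p under 0.05 and none called. Among all genes tested, 50.7% were above 0 and 1766 of 24370 had such a p. DOX under the inhibitors lowered 4 of the 48, where 0.152% of all genes were called lower. H2AC6, an H2A gene, measured 114, 113 and 105 under DMSO, 93.5, 101 and 157 under DMSO + DOX, 1549, 1559.5 and 1289.5 under BRAFi + MEKi and 669.7, 734 and 665 under BRAFi + MEKi + DOX (interaction -1.12, SE 0.26, adjusted p = 0.103). H2BC21, an H2B gene, measured 94.3, 107 and 70.5, then 67.9, 77.3 and 80.7 with DOX, 974, 834 and 735 under the inhibitors and 335.5, 346 and 296 under both (interaction -1.12, SE 0.27, adjusted p = 0.133). Both rose with the inhibitors and fell with DOX under them, the reverse of ORC6 or RRM2. The lowest adjusted p values of the other lists were those of VDR for nuclear receptors besides NR2F1 (0.313), SMAD6 for WNT, TGF-beta, BMP and Notch (0.316), BIRC7 for apoptosis (0.293), SLC7A5 for ATF4 and the unfolded protein response (0.737), HLA-E for interferon and antigen presentation (0.738) and MT-CO2 for mitochondrial mRNAs (0.576).

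The same interaction was then read in the 2 other lines, whose libraries took no part in choosing the 107 genes. In 1205Lu no gene of 22144 passed limma's threshold (1267 had an unadjusted p under 0.05), and in WM793 none of 22074 did (1262). The 107 genes nevertheless had a median interaction of 1.11 in 1205Lu and -0.25 in WM793, beside 0.00 and -0.01 over all genes. In 1205Lu 103 of the 107 were above 0 (50.4% of all genes) and 49 were above 0 with an unadjusted p under 0.05 (3.31% of all genes). In WM793 12 were above 0 (48.6% of all genes) and none of these had an unadjusted p under 0.05, while 14 were below 0 with one (2.76% of all genes). The size in 1205Lu rested in part on the BRAFi + MEKi library numbered 1, in which ORC6 measured 95.9 against 332.7 and 277.3 in the other two and BUB1 429.8 against 1207 and 1209.8. Without that library, a check added after the data were seen, the 1205Lu median was 0.54 with 99 of the 107 above 0, the interaction of ORC6 went from 1.24 to 0.69, that of RRM2 from 1.65 to 0.78 and that of BUB1 from 1.15 to 0.65. Leaving out each other 1205Lu library gave medians between 1.03 and 1.35. In WM793 the median stayed between -0.30 and -0.20 in the same check. Genes of 1 pathway vary together, so these counts are not 107 separate observations.

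The effect of the inhibitors without DOX on these genes was also read in each line, and its difference between lines was not tested. The median effect of BRAFi + MEKi without DOX over the 107 was -3.20 in A375, where the genes were chosen, -2.30 in 1205Lu and -0.03 in WM793. CDC20 in 1205Lu measured 2995, 4512 and 3572 under DMSO and 361, 797 and 624 under BRAFi + MEKi, and the combined treatment gave 1218.5, 1726 and 1675. In WM793 CDC20 measured 2776.5, 2999.8 and 3318 under DMSO, 1169.5, 2531 and 1542 under BRAFi + MEKi and 1064, 1974 and 1667 with DOX added. The 1205Lu groups kept the order of A375, and the last 2 WM793 groups overlapped. ORC6 in WM793 stayed at 1471.5, 1643 and 1517 under BRAFi + MEKi against 1368, 1426 and 1453 under DMSO.

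**Figure D5:**
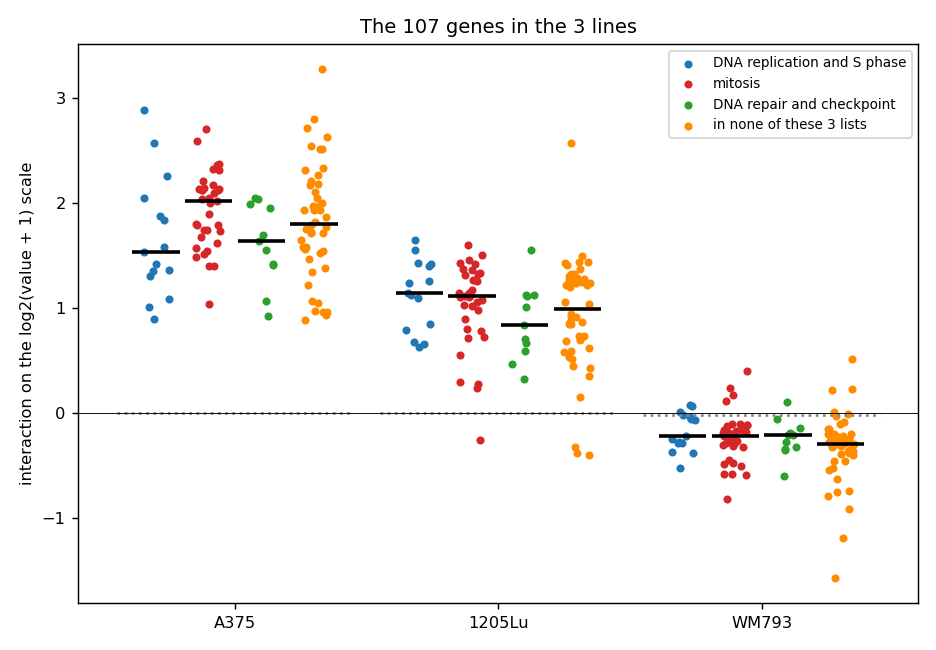
Interaction on the log2(value + 1) scale of the 107 genes in A375, where they were chosen, and in 1205Lu and WM793, with 1 point per gene coloured by list, black bars at list medians and dotted lines at the median of all genes. The 1205Lu points lie mostly above 0, around 1.11, and the WM793 points mostly below it, around -0.25.

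For differences between lines, the 36 libraries were fitted together and 26779 genes were tested. Against WM793, 24 genes were called (0.0896%), 20 of them higher in A375 (0.0747%) and 4 lower (0.0149%), and 16 of the 20 were among the 107, which were chosen on the same A375 libraries, so this overlap is in part fixed by that choice. The number called higher fell to 1 when any 1 of 4 libraries was left out alone, namely A375 DMSO replicate 1, A375 BRAFi + MEKi + DOX replicate 3, WM793 DMSO + DOX replicate 2 or WM793 BRAFi + MEKi + DOX replicate 3, and reached 103 without A375 BRAFi + MEKi replicate 3. The 16 included CDC20 (difference 2.997, SE 0.59, adjusted p = 0.0396), BUB1 (2.64, SE 0.55, adjusted p = 0.0450), ZWINT (2.05, SE 0.43, adjusted p = 0.0493), and RTKN2, a rhotekin, with the smallest p of the 16 (2.50, SE 0.45, adjusted p = 0.0259). Against 1205Lu 1 gene was called (0.00373%), none of the 112, and 1400 had an unadjusted p under 0.05. No single gene of the 107 was thus shown to differ between A375 and 1205Lu. Without the BRAFi + MEKi + DOX library numbered 1 the 1205Lu fit called 57 genes, 14 of them higher and 43 lower. The 4 of the 107 genes that were not above 0 in 1205Lu were ADD2 (-0.39, 95% interval -1.26 to 0.48), CCN1 (-0.38, -2.76 to 2.00), TIMP3 (-0.33, -1.03 to 0.38) and CIT (-0.25, -1.30 to 0.80), and each interval included 0.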

How the data were processed

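RNA-Seq was run on 36 libraries of 3 melanoma lines, and the 12 A375 libraries gave the calls. The authors deposited 1 normalized expression value (a signal, not a read count) per gene and library, for 60656 genes. The submitters' processing notes name STAR, RSEM, DESeq2 and GRCh38. Low values were not multiples of a single step, so whole reads were not recovered and a count test was not used. The scaling spans the libraries, so a change in total RNA per cell does not show. Values were analysed as log2(value + 1) with limma 3.58.1 (moderated test with trend, R 4.3.3) in 1 fit of the 12 libraries of a line. A gene was tested where any group of the line averaged 1 or more (26779 in the fit of all 36 libraries for differences between lines), with Benjamini-Hochberg adjustment over all of them. Per the study's methods, in vitro replicates came from independent experiments, and p values measure the spread between these libraries.

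Named genes were NR2F1, the 15 largest interactions in each direction among called genes with a mean of at least 30, and up to 4 called members of each list by p, or 2 where none was called. Of these, 2 genes are not reported here. PCNA, MKI67, TOP2A, CDK1, UTP14C, genes given by the interaction alone and genes at the threshold were added after their values were seen. The members and the gene lists were chosen with earlier results of these data known. Symbols and coordinates come from GENCODE 44, promoters from RefSeq GRCh38.p14. On simulated data for the A375 interaction over 23718 genes, 44 of 100 genes with a log2 change of 1 and 85 of 100 with a change of 2 were called, beside 11 unchanged genes. Alternatives were a pseudocount of 0.1, other filters, rescaled totals, the replicate block, array weights, other sets of libraries in the fit and leaving out libraries.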

Additional observations from a re-analysis of the deposited data

Results flagged for a closer look

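The difference between cell lines was tested for the interaction itself, in a limma fit of all 36 libraries, and passed the threshold for 24 genes against WM793 and for 1 gene against 1205Lu. Of the 112 genes called in A375, 16 passed this threshold against WM793, all with the larger interaction in A375. The 112 were chosen on the same A375 libraries. Of all genes 20 were called higher, which fell to 1 without A375 DMSO replicate 1, A375 BRAFi + MEKi + DOX replicate 3, WM793 DMSO + DOX replicate 2 or WM793 BRAFi + MEKi + DOX replicate 3, each left out alone. The differences on the log2 scale were 3.26 for ASF1B, 2.997 for CDC20, 2.93 for SHCBP1, 2.88 for CEP55, 2.71 for TTK, 2.64 for BUB1, 2.50 for RTKN2 and 2.44 for CENPK. For NEK2 the difference was 2.41, for CDCA8 2.27, for CLSPN 2.16, for ZWINT 2.05, for KIF23 1.96, for CENPN 1.95, for KIF20B 1.88 and for GGH, a folate hydrolase, 1.42. Each of the 16 was above 0 in A375 and in 1205Lu and below 0 in WM793.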

How the results depend on the processing

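The A375 interaction gave 112 calls, with 96 to 161 under a pseudocount of 0.1, other filters, rescaled totals or the replicate block, 236 with array weights and 191 in one fit of all 36 libraries. Deviations from the group means were correlated over 0.1 in 13 of 18 same-numbered pairs (lowest -0.04, median 0.165, against -0.136 for differently numbered pairs). Since not every pair passed 0.1, the main fit did not pair the libraries by number. This does not show that same-numbered libraries were unrelated. Those numbered 3 nevertheless had the highest score of each A375 group on the first component. The replicate block gave 161 calls (110 of the 112 kept), 601 for DOX under BRAFi + MEKi, 79 for DOX under DMSO, 2 for A375 minus 1205Lu and 78 for A375 minus WM793.

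Array weights gave 1035 calls for DOX under BRAFi + MEKi, 23 for DOX under DMSO, 20 in 1205Lu, 43 in WM793, 4 for A375 minus 1205Lu and 216 for A375 minus WM793. One fit of all 36 libraries gave 91 for DOX under DMSO. A375 minus 1205Lu gave 12 with a pseudocount of 0.1, 17 with no filter and 0 with the stricter filter (868 at an unadjusted p under 0.05). A375 minus WM793 gave 42 and 40 with the first of these. The mitosis list had 59 calls with array weights and 54 in one fit of all 36 libraries, the replication list 7 and the repair list 5 in that fit. Why these settings differ was not tested.

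Leaving out all libraries with 1 number was chosen after the data were seen. Without those numbered 1, 2 or 3 the interaction gave 0, 0 and 235 calls, DOX under BRAFi + MEKi 95, 87 and 735, and DOX under DMSO 3, 2 and 126. The mitosis list had 0, 0 and 54, the repair list 0, 0 and 6, and the replication list 0 and 0 without numbers 1 and 2.

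Leaving out each library in turn gave 40 to 209 calls for the interaction, 224 to 625 for DOX under BRAFi + MEKi, 7 to 23 for DOX under DMSO, 7874 to 9085 for BRAFi + MEKi without DOX, 0 to 57 in 1205Lu, 0 to 1 in WM793, 1 to 12 for A375 minus 1205Lu and 2 to 117 for A375 minus WM793. The same fits gave 6 to 60 calls in the mitosis list, 7 to 23 in the replication list and 3 to 12 in the repair list. Over the named and called genes, 908 of 3013 values missed the threshold that the reported value passed, 11 passed one that it missed, and none reversed. These fits share libraries with the reported ones, so the absence of reversals is in part fixed. With 3 libraries a group, an interaction of 1 on the log2 scale was often not detectable.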
